A study of Mus musculus with 8 samples.

Results

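The genes described here are 10 components of the PIWI-interacting RNA (piRNA) pathway, measured in fully grown mouse oocytes that had lost 1 or both working copies of Kiaa1429. They were taken by symbol from a list of Piwi, Tudor and partner proteins: Piwil1, Piwil2, Piwil4, Tdrd1, Tdrd5, Tdrd9, Tdrkh, Mael, Mov10l1 and Ddx4. All 10 are among the 52502 annotated genes with exon IDs in the files. Of these 10, 9 were among the 10673 genes with enough counts to be tested, and Piwil4 was not.

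piRNAs are small RNAs of the germ line that guide PIWI proteins, a branch of the Argonaute family, to transposon transcripts, which are then cleaved or silenced in chromatin. Long precursors are handed to the mitochondrial surface by RNA helicases, cut and trimmed there, and loaded into PIWI proteins, while Tudor domain proteins bind methylated arginines of the PIWI proteins and assemble the perinuclear granules called nuage. The pathway is best known from the mouse testis. Mouse oocytes contain piRNAs too, but also rely on small interfering RNAs made by Dicer.

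Germinal vesicle (GV) oocytes, arrested in prophase of the first meiotic division, were compared between 4 control and 4 conditional knockout (cKO) libraries. Controls had the genotype Kiaa1429F/+;Zp3-Cre and the cKO had Kiaa1429F/F;Zp3-Cre, so both carried the recombinase and at least 1 floxed allele, and no library came from oocytes without Cre. The Zp3 promoter is active in growing oocytes, so the deletion begins during oocyte growth and not in the fetal germ line. The protein made from Kiaa1429, a gene since renamed Virma, belongs to the enzyme complex that places N6-methyladenosine (m6A) on mRNA. The C57BL/6 females are given as 20 days old in 1 field of the labels and as 3 weeks old in another, and had received 5 IU of pregnant mare serum gonadotropin 48 hours earlier. Each library held polyadenylated RNA of about 20 pooled oocytes of at least 70 µm. The series text names 4 separate experiments but ties no library to an animal, so the p-values reflect only how much these libraries vary, which may be technical.

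The control libraries held 4247471 to 4790038 counts on exon IDs and the cKO libraries 4399190 to 5064008. Levels are given in CPM, the counts of a gene scaled to a common library size with TMM factors, with 3 counts worth 0.562 to 0.789 CPM in a library. Virma ranged from 57.1 to 82.0 CPM in controls and from 17.0 to 24.2 CPM in the cKO, so each library went with its label. The 12 oocyte markers summed to 39238 to 51829 CPM in controls and to 21920 to 26161 CPM in the cKO. Of the 12, 5 fell, 1 rose and 6 were not called. Bmp15 (mean 18799 CPM in controls, 7334 CPM in the cKO) and Gdf9 (13582 and 8130 CPM) held most of both sums. The 13 cumulus and granulosa markers summed to 233 to 394 CPM in controls and to 453 to 744 CPM in the cKO. Of the 9 that were tested, 4 rose (Inha, Nr5a2, Kitl and Ptgs2) and 2 fell (Fshr and Cyp19a1), and Nr5a2 and Inha held most of the sum. For 6 markers of immune and blood cells the sums were 0.239 to 0.665 and 5.31 to 9.24 CPM, in the cKO mostly C1qa, with Ptprc, Adgre1, Hbb-bs and Hba-a1 at 0. The 6 theca and stroma markers summed to 5.54 to 6.84 and to 4.21 to 5.31 CPM, and the 3 vessel markers to 5.00 to 12.1 and to 4.04 to 11.6 CPM. The 5 male germ cell markers, with Tnp1 at 0, summed to 1.25 to 2.00 and to 2.34 to 3.22 CPM, the difference being in Sycp3, with 5 control and 39 cKO counts. The part of these shifts in the results was not tested, and in such pooled samples fewer cells of a type and less RNA per cell cannot be told apart.

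Among the 10 piRNA pathway genes, Ddx4 fell to 45.2% of its control level in the cKO and Tdrkh rose 1.59-fold. The other 7 tested genes, among them Tdrd1, which had by far the most counts, did not pass the test. The adjusted p had to be under 0.05 in the quasi-likelihood test of edgeR with Benjamini-Hochberg adjustment over all tested genes. Over all 10673 tested genes, 27.0% were called higher and 27.9% were called lower, so 1 of 9 in each direction is no more than the share of genes at large. Groups did not overlap for the same 2 genes, Ddx4 and Tdrkh, against 50.1% of all tested genes. The median log2 fold change was 0.13 over the 9 genes and 0.02 over all tested genes, and 6 of the 9 estimates were above 0.

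Most of these genes were measured with few counts. Tdrd1 held 81.6% to 87.1% of the summed CPM of the 10 genes in each library and stood at percentile 96.6 of the tested genes by mean level. The other tested genes stood between percentile 1.78 (Mov10l1) and 55.3 (Piwil2), and together held 286 to 499 counts per library. Ddx4, Tdrd5 and Mov10l1 had 0% of their counts on last exons, against 98.4% for Tdrd1. These ranks therefore depend on which bases of a gene could be counted, and do not order the genes by mRNA level. Among the 6171 tested genes with a mean of 2 to 25 CPM, a range set after the values were seen and holding 8 of the 9, 26.3% were called higher and 26.8% lower. These shares are close to those of all genes.

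**Figure D1:**
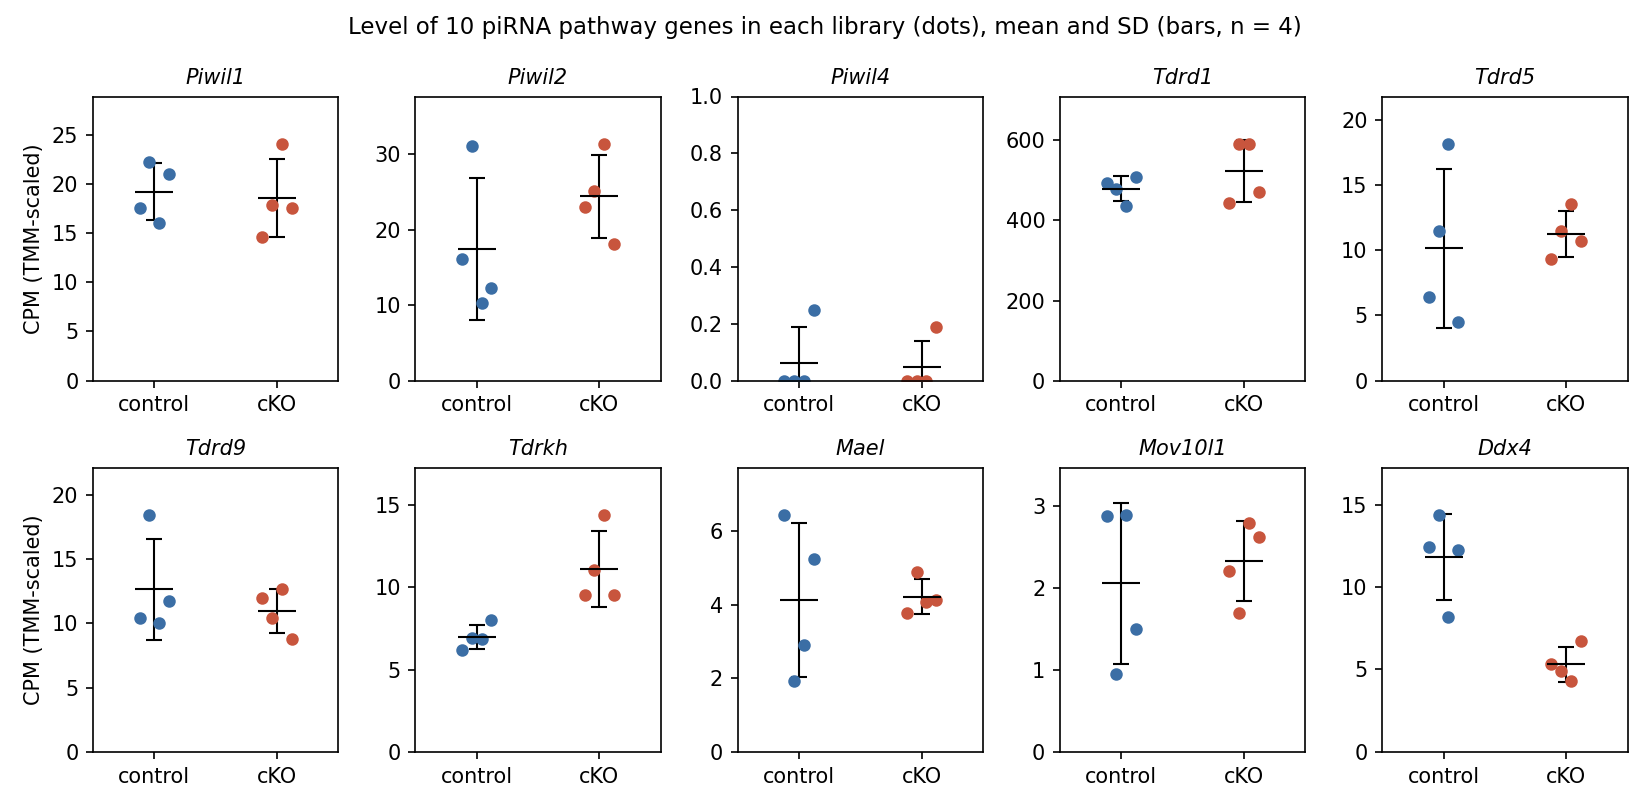
Level of each of the 10 genes in TMM-scaled CPM (y axes start at 0 and differ between genes), one dot per library, with horizontal bars for the mean and SD of 4 control and 4 cKO libraries. The control and cKO dots are apart for Ddx4 (lower in cKO) and Tdrkh (higher in cKO) and overlap for the other 8 genes, while Piwil4 has a count in 1 library of each group.

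**Figure D2:**
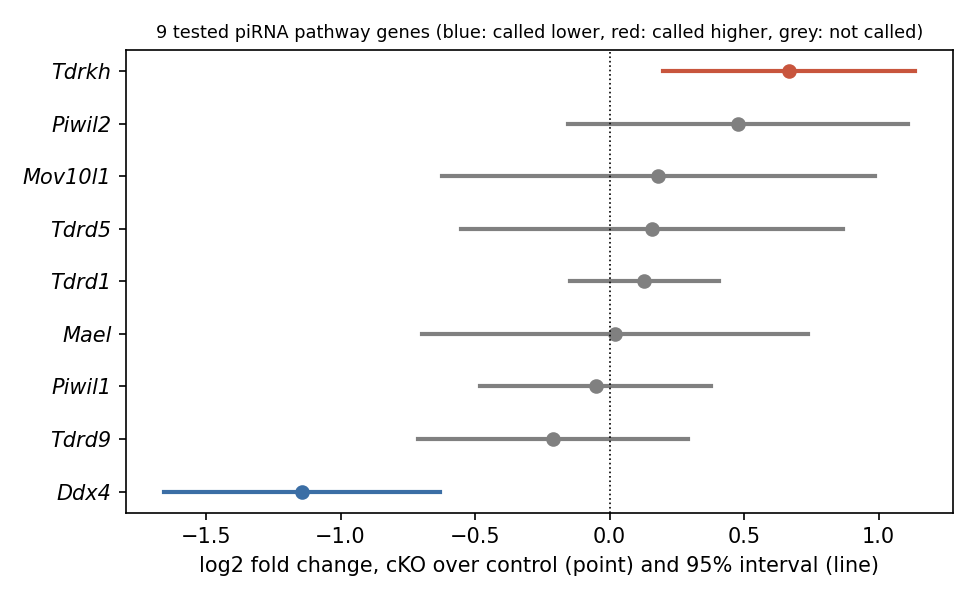
Log2 fold change of cKO over control for the 9 tested genes (points) with 95% intervals (lines), ordered by value on the x axis. The intervals of Ddx4 (-1.14) and Tdrkh (0.67) lie to either side of 0, and the other 7 include 0.

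The PIWI proteins themselves were represented by Piwil1 and Piwil2, and hardly at all by Piwil4. Piwil1 (MIWI; chr5:128702524-128755474, plus strand; all coordinates are mm10) encodes the PIWI protein known from the piRNAs of meiotic and postmeiotic male germ cells. It ranged from 16.0 to 22.3 CPM in controls and from 14.6 to 24.1 CPM in the cKO. The groups overlapped throughout, at 19.21 ± 2.91 and 18.5 ± 3.97 CPM (SD, n = 4 each). The log2 fold change was -0.05 (standard error 0.20, edgeR adjusted p = 0.847), with a 95% interval of the fold from 0.716 to 1.30.

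Piwil2 (MILI; chr14:70372477-70429383, minus strand) encodes the slicing PIWI protein that starts piRNA production in fetal male germ cells and is also present in oocytes. Its control libraries stood at 16.2, 31.1, 10.3 and 12.3 CPM and its cKO libraries at 23.0, 25.1, 31.4 and 18.2 CPM. Control 2 was about as high as the highest cKO library, while the other 3 controls were below all 4 cKO libraries. Over all libraries the log2 fold change was 0.48 (standard error 0.30, edgeR adjusted p = 0.190), with a 95% interval of the fold from 0.899 to 2.16. Without control 2 it was 0.90 and passed the test (adjusted p = 0.00501), so this 1 library decides the call.

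Piwil4 (MIWI2; chr9:14696230-14740733, minus strand) encodes the nuclear PIWI protein that directs DNA methylation of transposons in fetal male germ cells. It had 1 count in control 4, 1 count in cKO 4 and 0 in the other 6 libraries, which is under the 3 counts that a count of 0 allows in a library. Its exons hold 2961 bases that no other exon ID shares, 1670 of them on a last exon, so countable bases were present. No fold change is given for it.

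Ddx4 (chr13:112598333-112652475, minus strand) encodes the DEAD-box RNA helicase known as mouse vasa homolog, a standing marker of germ cells and a nuage component that acts in the amplification of piRNAs. It stood at 12.4, 14.4, 8.15 and 12.3 CPM in the 4 control libraries and at 5.32, 4.89, 4.30 and 6.74 CPM in the 4 cKO libraries. The lowest control was above the highest cKO library. The mean fell from 11.8 ± 2.61 to 5.31 ± 1.04 CPM (SD, n = 4 each), a log2 fold change of -1.14 (standard error 0.24, edgeR adjusted p = 0.000907), with a 95% interval of the fold from 0.317 to 0.645. The counts behind this are 196 in the controls and 103 in the cKO. The call held under all 16 alternative settings that could be fitted, with log2 fold changes from -1.28 to -0.99. Leaving out last exons, or exons that overlap another gene, removed no Ddx4 counts. Those settings thus changed only the scaling and the other genes in the fit.

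These counts came from inside the gene and not from its 3' end, whose last exon has only 2 bases that no other exon ID shares. Whether the 3' end of Ddx4 mRNA fell as well is therefore not known here. The internal coding exon ENSMUSE00000120546 (chr13:112599852-112600122, exon 20 of 22) held 59.7% of the Ddx4 counts in controls and 59.2% in the cKO. Its sequence, from GENCODE M21 on GRCm38, is shown because the fall rests largely on it. Capitals mark the codons of helicase motif VI, a conserved ATP-binding and RNA-binding element of DEAD-box proteins, located by translating the exon in frame. The strand shown is that of the mRNA, 5′ to 3′.
Ddx4 exon 20: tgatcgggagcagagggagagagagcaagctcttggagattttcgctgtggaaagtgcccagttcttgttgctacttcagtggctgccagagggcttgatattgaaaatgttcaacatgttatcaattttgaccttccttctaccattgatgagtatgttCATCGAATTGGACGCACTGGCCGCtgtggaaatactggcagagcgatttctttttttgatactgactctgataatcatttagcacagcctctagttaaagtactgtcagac

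This exon had 37, 38, 19 and 23 counts in the control libraries and 13, 14, 13 and 21 in the cKO libraries. The highest cKO library thus passed the lowest control library in raw counts. In a fit of single exon IDs its log2 fold change was -1.12 (standard error 0.28, edgeR adjusted p = 0.00332 over 14052 exon IDs, of which 26.2% were called higher and 27.3% lower). On the rest of the gene lay 79 control and 42 cKO counts. Of 10 Ddx4 exons with at least 5 counts, 9 had a lower mean in the cKO. Reads outside every exon ID also took a smaller share in the cKO, 5.01% to 6.19% against 9.86% to 12.0% in controls. The share is of reads on exon IDs, outside them or classed as ambiguous. The part of this shift in the result was not tested. With last exons left out of every gene, 973 genes were called higher and 995 lower, and Ddx4 had a log2 fold change of -0.99 (adjusted p = 0.00376, edgeR). Since no Ddx4 counts lay on last exons, this setting left its counts unchanged and is no check of where they came from.

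The other helicases of the set did not pass the test. Mov10l1 (chr15:88982909-89055152, plus strand) is the helicase that feeds single-stranded precursors into piRNA processing. It had the lowest counted level of the tested members, at 0.957 to 2.89 CPM in controls and 1.70 to 2.79 CPM in the cKO. Its estimate of 0.18 (standard error 0.38, edgeR adjusted p = 0.710) leaves a 95% interval of the fold from 0.649 to 1.98, so even a sizeable change was not detectable at this depth. Tdrd9 (chr12:111971559-112068854, plus strand), which joins a helicase to a Tudor domain and partners the nuclear PIWI protein in male germ cells, ranged from 9.995 to 18.4 CPM in controls and from 8.80 to 12.7 CPM in the cKO, for an estimated log2 fold change of -0.21 (standard error 0.24, edgeR adjusted p = 0.472).

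Tdrd1, Tdrd5 and Tdrkh are the Tudor scaffolds of the set. Tdrd1 (chr19:56826209-56870012, plus strand) gathers PIWI proteins in the nuage between mitochondria, and had by far the highest counted level of the set. Its control libraries stood at 495, 478, 436 and 509 CPM and its cKO libraries at 444, 591, 591 and 471 CPM. cKO 2 and cKO 3 were above every control, and the other 2 cKO libraries lay within the control range. The means were 479 ± 31.7 CPM (control) and 524 ± 77.8 CPM (cKO, SD, n = 4 each), with a log2 fold change of 0.13 (standard error 0.13, edgeR adjusted p = 0.420) and a 95% interval of the fold from 0.903 to 1.32. The interval leaves out a change of the size seen for Ddx4 or Tdrkh.

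The last exon of Tdrd1 (chr19:56868703-56870012, 3' UTR) held 98.4% of the counts of the gene. Tdrd1 was the only member with 2 exons tested for usage, which is the change of an exon relative to the other exons of its gene. Neither was called (usage changes of 0.15 and -0.00 on the log2 scale), against 13.3% of the 6931 exons tested for usage. The value of -0.00 is that of the last exon. Since this exon makes up nearly the whole gene, its usage could hardly move, and its result says little.

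Levels can be compared between genes only per length, over last exons with at least 500 bases of their own. On that scale Tdrd1 had 360.8 CPM per kilobase in controls (328 to 379), Tdrd9 had 21.1 (15.2 to 31.5), Piwil1 had 21.0 (18.2 to 24.3), Piwil2 had 8.23 (4.86 to 15.1) and Tdrkh had 7.49 (6.56 to 7.94). Tdrd1 stood above the other 4 in every library. Tdrd9 and Piwil1 overlapped, as did Piwil2 and Tdrkh. Each value covers only transcripts that use the last exon counted. For Tdrkh these are the ones with its longest 3' UTR, so its value is not the level of the whole gene. In the cKO the values were 402.0 for Tdrd1, 20.1 for Piwil1, 18.3 for Tdrd9, 12.0 for Piwil2 and 11.8 CPM per kilobase for Tdrkh. The other 5 genes had no last exon with enough counted bases for this scale or, for Piwil4, hardly any count.

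Tdrkh (chr3:94413273-94434668, plus strand) encodes a Tudor protein anchored in the outer mitochondrial membrane that brings PIWI-bound RNA to the enzyme trimming its 3' end. Its control libraries stood at 6.21, 6.94, 6.84 and 8.00 CPM and its cKO libraries at 9.53, 11.05, 14.4 and 9.55 CPM. Every cKO library was above every control. The mean rose from 6.999 ± 0.744 to 11.1 ± 2.29 CPM (SD, n = 4 each), with a log2 fold change of 0.67 (standard error 0.22, edgeR adjusted p = 0.0176). The call was lost without control 1 (log2 fold change 0.60, adjusted p = 0.0603) and without cKO 3 (0.50, adjusted p = 0.0754), so it rests on single libraries.

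The rise of Tdrkh was read from 1 stretch of its longest 3' UTR. The last exon ENSMUSE00000905903 (chr3:94430818-94434668) held 111 of the 115 control counts and 200 of the 213 cKO counts. Only 904 of its bases are shared with no other exon ID (chr3:94431510-94432413). They lie between the end of the shorter Tdrkh transcripts and the nearest exon bases of Oaz3, a gene on the opposite strand. These libraries do not mark strand, so reads of the 2 genes next to that border cannot be told apart. The exon alone had a log2 fold change of 0.65 (standard error 0.24, edgeR adjusted p = 0.0289 over tested exon IDs). The level of the shorter Tdrkh transcripts, whose bases are shared between exon IDs, is therefore not known here.

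Tdrd5 (chr1:156255296-156303664, minus strand), a Tudor protein that binds piRNA precursors in male germ cells, stood at 6.43, 11.5, 18.1 and 4.50 CPM in controls and at 9.31, 11.5, 13.5 and 10.7 CPM in the cKO. The controls spread more widely and enclosed all 4 cKO libraries. Its log2 fold change was 0.16 (standard error 0.33, edgeR adjusted p = 0.711), with a 95% interval of the fold from 0.682 to 1.83.

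Mael (chr1:166201201-166238747, minus strand) encodes Maelstrom, a nuage protein needed for transposon silencing in male meiosis and studied in fetal oocyte loss. As a gene it stood at 6.43, 1.91, 2.89 and 5.25 CPM in controls and at 3.77, 4.89, 4.08 and 4.12 CPM in the cKO, with the cKO inside the control range. The means of 4.12 ± 2.08 and 4.21 ± 0.476 CPM (SD, n = 4 each) gave a log2 fold change of 0.02 (standard error 0.34, edgeR adjusted p = 0.964).

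The exons of Mael did not share this level picture, and the following was singled out after the counts had been seen. The internal coding exon ENSMUSE00000225465 (chr1:166226566-166226690, exon 6 of 12) is printed because its counts ran against those at the 3' end. The sequence is from GENCODE M21 on GRCm38, in the sense of the mRNA, 5′ to 3′, with nothing marked.
Mael exon 6: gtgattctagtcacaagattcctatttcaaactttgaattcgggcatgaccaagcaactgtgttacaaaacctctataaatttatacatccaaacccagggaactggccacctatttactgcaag

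Exon 6 of Mael had 21, 6, 10 and 18 counts in the controls and 8, 4, 4 and 3 in the cKO. The last exon of the longer 3' end (chr1:166201201-166201735, 184 bases of its own) had 5, 1, 0 and 2 counts in the controls and 4, 12, 8 and 12 in the cKO. In raw counts both exons overlapped between the groups. As a share of the counts of the gene, exon 6 took 72.4%, 75%, 90.9% and 85.7% in the controls and 47.1%, 17.4%, 21.1% and 13.6% in the cKO. On this scale the groups did not overlap, and cKO 1 was the cKO library nearest to the controls. These shares rest on 8 to 29 counts of the gene per library. How often the shares of other exons separate by group was not computed, so this separation is not shown to be unusual. On the other Mael exons lay 6 control and 26 cKO counts.

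Neither exon had enough counts for the exon fit. With every exon ID of at least 1 count kept (80902 exon IDs, of which 6.00% were called higher and 6.28% lower), exon 6 had a log2 fold change of -1.69 (standard error 0.45, edgeR adjusted p = 0.00246) and the last exon 1.92 (standard error 0.59, edgeR adjusted p = 0.0131). The usage test without the filter, an alternative added after these counts were seen, called exon 6 (-1.73 on the log2 scale, adjusted p = 0.00932, edgeR) and not the last exon (1.87, adjusted p = 0.0557, edgeR). Of the 66829 exon IDs in that test 2.17% were called. Besides these, the only member exon called without the filter was exon 20 of Ddx4. The Tdrkh exon was not called there (adjusted p = 0.104). How a read pair that reaches from exon 6 into a neighbouring exon was counted is not known, since the counting mode was not given in the sources used here. Reads that the files class as ambiguous took a share of 72.9% to 75.4% in controls and 78.8% to 80.4% in the cKO. The share is again of reads on exon IDs, outside them or ambiguous. The part of ambiguous reads in the Mael counts was not tested.

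**Figure D3:**
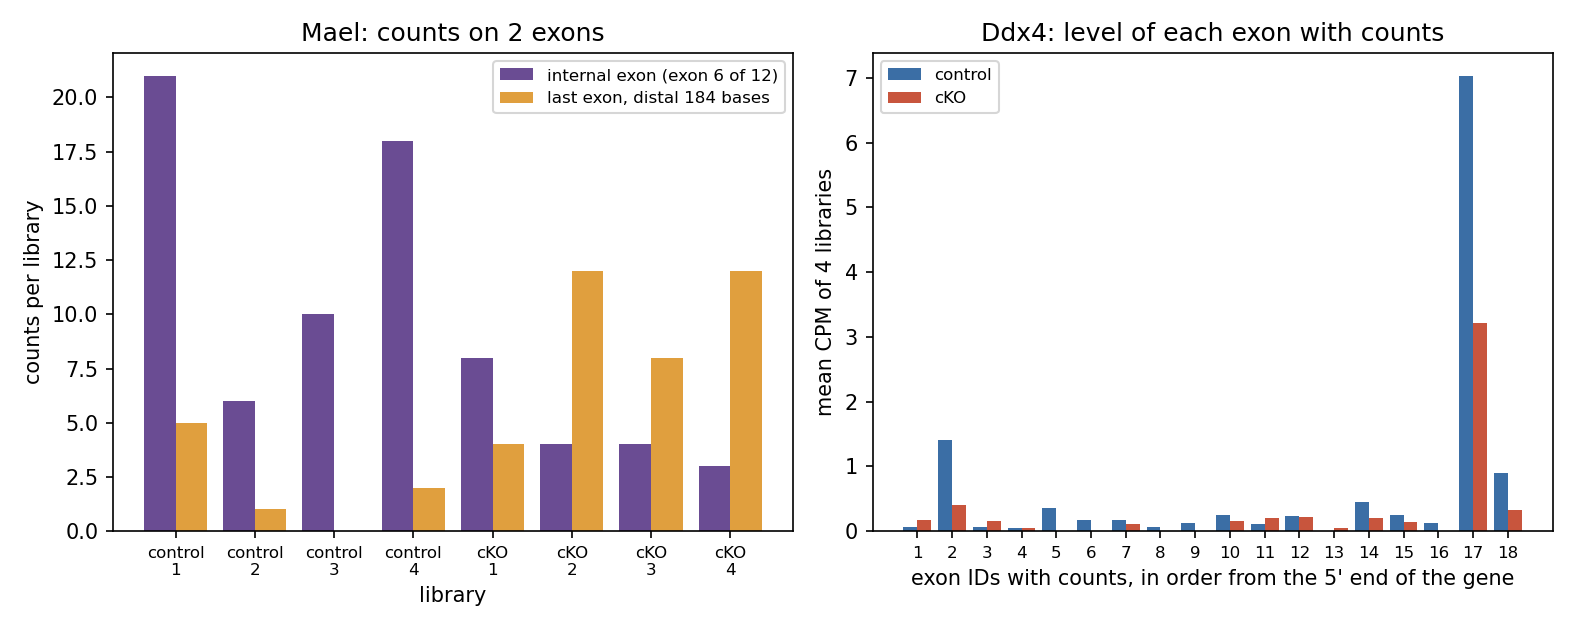
Left, counts per library on exon 6 of Mael and on the last 184 bases of its longer 3' end; right, mean CPM (n = 4 libraries per group) of the 18 Ddx4 exon IDs with counts, in order from the 5' end. Exon 6 leads in all 4 control libraries and in cKO 1, the last exon leads in cKO 2 to cKO 4, and 1 internal Ddx4 exon (place 17) holds most of the Ddx4 level in both groups.

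In all, the 10 genes have 328 exon IDs, of which 99 held a count and 8 could be tested. Of these 8, 1 was called higher (Tdrkh) and 1 lower (Ddx4), against 26.2% and 27.3% of all tested exon IDs.

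The GGACT letters, the form of the m6A consensus most often cited, were searched on the mRNA strand of the longest coding transcript of each gene in GENCODE M21. All 10 genes hold it, as do 91.3% of 8017 tested genes with a coding transcript. Per kilobase, the 10 genes ranged from 0.351 (Tdrkh) to 1.52 (Piwil4) against a median of 1.00 over tested genes (quartiles 0.602 and 1.45), and 6 of the 10 were above that median. Ddx4, which fell, has 4 matches or 1.33 per kilobase, all in the coding part, and Tdrkh, which rose, has 2, both in the 3' UTR. Neither printed exon holds GGACT, and of coding internal exons of the same lengths 13.9% (125 bases) and 32.5% (271 bases) do. A match in these letters is not a measured m6A site.

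Other genes of the pathway moved in both directions. They were taken from lists, each of which is described by its counts beside the 27.0% higher and 27.9% lower of all tested genes, and the cumulus and granulosa markers given above had a higher sum in the cKO, with Fshr and Cyp19a1 lower. Of 9 other Tudor domain genes, 7 were tested, 2 rose and 2 fell, with a median log2 fold change of -0.11. Tdrd6, a large Tudor protein of the male chromatoid body, rose from 1.87 ± 1.38 to 5.65 ± 1.38 CPM (1.61 in log2, SE 0.41), and Tdrd7, a related granule protein, from 2.10 ± 0.525 to 4.48 ± 0.924 CPM (1.08, SE 0.30). Snd1, a widely expressed Tudor nuclease, fell from 115.7 ± 15.9 to 83.6 ± 9.19 CPM (-0.47, SE 0.14).

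Of 13 genes of piRNA production and its regulation, 9 were tested, 3 rose and 3 fell, with a median of -0.29. Mybl1, the transcription factor that drives pachytene piRNA clusters in the testis, rose from 53.1 ± 10.1 to 91.3 ± 8.75 CPM (0.78 in log2, SE 0.16). Fkbp6, a cochaperone of PIWI loading, rose from 9.46 ± 2.21 to 18.7 ± 2.75 CPM (0.98, SE 0.22), and Gtsf1l, a paralog of the PIWI cofactor Gtsf1, from 14.8 ± 4.91 to 26.9 ± 3.24 CPM (0.85, SE 0.22). The 3 that fell are named after their values were seen. They are Pld6, the nuclease that cuts precursors, from 19.12 ± 2.44 to 12.7 ± 2.27 CPM, Pnldc1, the trimming enzyme, from 4.72 ± 0.735 to 2.48 ± 0.935 CPM, and Henmt1, the methyltransferase that seals the 3' end, from 5.55 ± 1.202 to 2.58 ± 0.732 CPM.

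Of 17 genes listed for transposon silencing, 12 were tested, 3 rose and 2 fell, with a median of 0.24. Dnmt3c, a DNA methyltransferase of the male germ line, rose from 1.83 ± 0.960 to 15.1 ± 0.463 CPM (3.03 in log2, SE 0.28), and Tex19.2 from 25.7 ± 16.9 to 139.9 ± 39.7 CPM (2.44, SE 0.35). Both have a close copy in the genome, Dnmt3b and Tex19.1, between which shared reads could be split or lost, so these values are uncertain. Spocd1, which links the nuclear PIWI protein to DNA methylation, fell from 23.6 ± 7.87 to 7.84 ± 1.95 CPM (-1.58, SE 0.27).

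Of 9 genes of the small interfering RNA and microRNA machinery, 7 were tested, 3 rose and 2 fell, with a median of 0.13. Ago2, the slicing Argonaute that uses the small interfering RNAs of the oocyte, fell from 205.8 ± 40.3 to 57.6 ± 8.97 CPM (-1.84 in log2, SE 0.17). Ago1 rose from 1.41 ± 0.459 to 22.1 ± 8.45 CPM (3.96, SE 0.35) and Ago4 from 9.88 ± 1.81 to 20.4 ± 4.39 CPM (1.04, SE 0.22), both Argonautes without strong slicing activity. The other 2 called genes are named after their values were seen. Ago3, the fourth Argonaute, rose from 132.3 ± 20.7 to 213.1 ± 18.5 CPM (0.69, SE 0.14), and Dicer1, the enzyme that cuts these small RNAs, fell from 203.0 ± 7.35 to 138.6 ± 12.6 CPM (-0.55, SE 0.12).

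**Figure D4:**
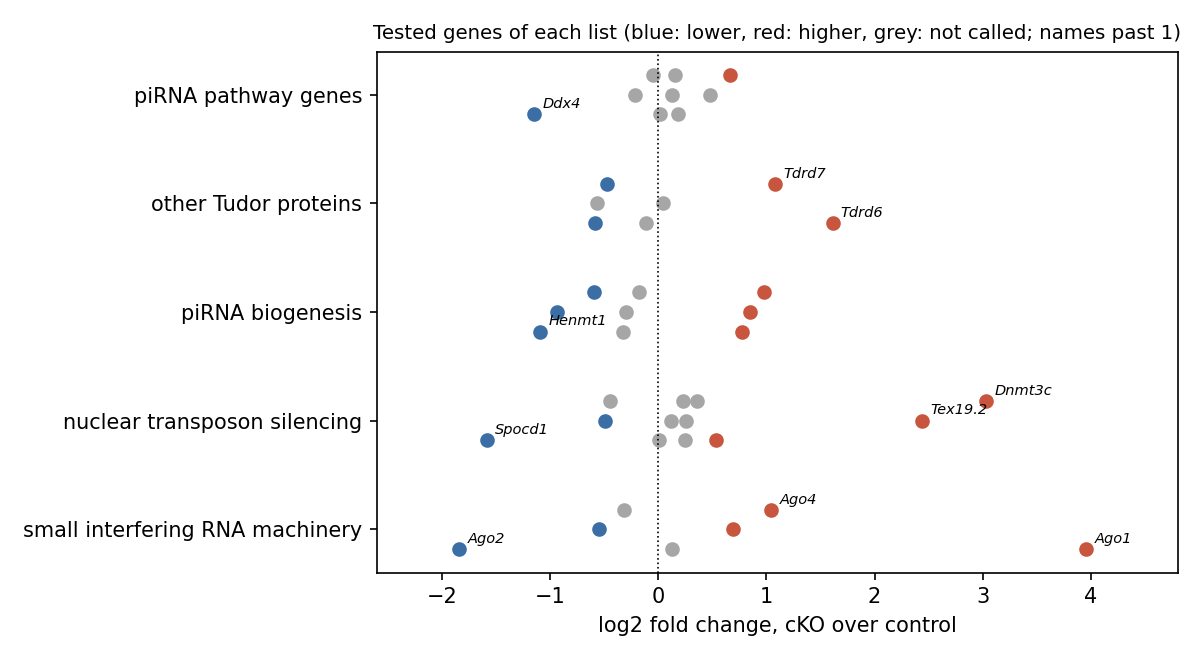
Log2 fold change of cKO over control (x axis) for each tested gene of the 10 piRNA pathway genes and of the 4 other lists (y axis), with genes called higher in red, lower in blue and not called in grey, and called genes past 1 in either direction named. The piRNA pathway genes span -1.14 (Ddx4) to 0.67 (Tdrkh), while the small interfering RNA list spans -1.84 (Ago2) to 3.96 (Ago1).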

How the data were processed

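For each of 8 libraries the authors deposited a file of raw counts over exon IDs. The submitters' processing notes name STAR, HTSeq and mm10, but their versions, the counting options and the annotation were not given in the sources used here. Per the labels' protocols, oligo-dT primed, template-switched and tagmented cDNA was read as pairs of 150 bp, without strand. Of the reads on exon IDs, outside them or classed as ambiguous, exon IDs hold 14.6% to 15.6%, and most others are ambiguous. Other summary classes were left out of these shares.

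Of 496288 exon IDs, 494230 (99.6%) matched GENCODE M21 (GRCm38) without versions. Left out were the other 2058, with 0.252% of counts, and 5 summary lines. Exon counts were summed per gene, filtered with filterByExpr (minimum count 10), given TMM factors and compared by the two-sided edgeR 4.0.16 quasi-likelihood test in R 4.3.3, group as the only term, Benjamini-Hochberg adjusted p under 0.05. Exon IDs were tested likewise, and exon usage with diffSpliceDGE. Tested on simulated gene counts of control against cKO (10375 genes), the fit called 13.6% of 66 changes of 1.5-fold, 55.4% of 65 of 2-fold and all 64 of 4-fold, with 6 unchanged genes called. Only these few genes were changed there, while 27.0% of the real tested genes were called higher and 27.9% lower. The adjustment is stricter where few genes change, so these shares do not give the detection rate in the real data. DESeq2 1.42.0, other scalings, filters, exon choices and libraries left out were alternatives.

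All 10 members are named, with up to 3 called genes of smallest p from each other list (others are said to be named after their values were seen), and the top or called exons of members. The members, lists and rules were chosen with earlier results of these data known. Each library is 1 pool of oocytes, and intervals cover the spread between libraries. By a Dixon test (critical value 0.829 for 4 values, 18 sets of a tested member in a group), no library was called an outlier. With 4 libraries this test finds only extreme cases. It did not call control 2 for Piwil2, at 31.1 CPM against 10.3 to 16.2 CPM in the other controls.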

Additional observations from a re-analysis of the deposited data

How the results depend on the processing

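The fall of Ddx4 was called under all 16 alternatives and the rise of Tdrkh under 12 of the 14 that gave it a value. For Ddx4, leaving out last exons or exons that overlap another gene removed no counts, so those alternatives could not test its exons. The count of piRNA pathway genes called higher was 0 with last exons left out and 0 with exons overlapping no other gene, since Tdrkh had too few counts to be tested there, and ranged from 0 to 2 over leaving out each library. With last exons left out, 973 genes of all were called higher and 995 lower, fewer genes being tested. Member exons called numbered 1 to 4 when 1 library was left out, against 2, and member exons with changed usage numbered 1 without the filter, against 0. Estimates near 0 changed sign: Tdrd9 was 0.023 and Mael -0.47 with last exons left out, and Mael was -0.067 with protein-coding genes only. Over leaving out each library, Piwil1 ranged from -0.22 to 0.055, Tdrd5 from -0.10 to 0.59, Tdrd9 from -0.31 to 0.014, Mael from -0.23 to 0.32 and Mov10l1 from -0.070 to 0.39. None of these 5 passed the test under any alternative run. Replicate numbers gave no clear pairing of the libraries: deviations of same-numbered libraries correlated at -0.06 to 0.11, and 2 of 4 controls correlated best with their own number. So few pairs cannot show that there was no pairing. With the replicate number as a block, 1 piRNA pathway gene was called higher and 1 lower, as without it, with Ddx4 at -1.14 and Tdrkh at 0.65, and 2885 and 2908 of all tested genes. Few counts limit Mael, Mov10l1 and Piwil4, and bases shared between exon IDs limit what any exon can show.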

Other observations

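Btbd18, a transcription regulator of testis piRNA clusters that stands on the list of piRNA production, did not pass the filter on low counts, with 5 counts in the 4 control libraries together and 62 in the 4 cKO libraries. It was named after its values were seen. Asz1, a mitochondrial partner of the pathway, had 9 and 28 counts, and Gpat2 had 13 and 6. Dnmt3a, Trim28 and Setdb1, general factors of silencing, had 14 and 14, 18 and 26, and 1 and 3 counts, so their levels are not known here.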
